A study of Arabidopsis thaliana with 12 samples.

Results

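The 8 genes described here are the Arabidopsis thaliana FT and TFL1 family and its bZIP partners. The family is FT (AT1G65480), TSF (AT4G20370), TFL1 (AT5G03840), BFT (AT5G62040), ATC (AT2G27550) and MFT (AT1G18100), and the bZIP transcription factor genes are FD (AT4G35900) and FDP (AT2G17770). They were taken by gene identifier from the authors' tables and occupied 9 of 31788 loci, because FDP was split over 2 loci. RNA was sequenced from whole seedlings of the mutants pkl, clf and lhp1 and of wild type (WT), all 14 days old and grown at 22 °C in 16 h light and 8 h dark. By their titles 12 libraries were made, 3 of each genotype, but the tables hold 1 expression value per genotype and locus, in FPKM (mapped fragments per kilobase of transcript, divided by library size), so no value below carries a replicate error. The labels name neither the alleles nor any shared transgene or treatment, and do not say whether libraries came from separate cultures, so p-values may reflect technical spread. PKL (PICKLE) is a CHD3 chromatin remodeller, CLF is a Polycomb methyltransferase for H3K27me3, and LHP1 is a chromodomain protein that binds that mark.

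FT is the mobile flowering signal of plants: it is made in phloem companion cells of leaves, moves to the shoot apex and there acts with FD, which binds DNA. TSF is its closest relative and also promotes flowering. TFL1, ATC and BFT belong to the same phosphatidylethanolamine-binding protein family but delay flowering, and TFL1 competes with FT for FD at the apex. MFT acts mainly in seeds, where it affects germination. FDP is the closest relative of FD. FT is a known target of Polycomb repression.

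The family members are alike in structure, which also bears on how reads are assigned. Each of the 6 family genes has 4 coding exons and between 173 and 177 codons in the RefSeq annotation (TAIR10.1). FT and TSF shared 82.1% of aligned coding bases, TFL1 and ATC 68.2%, and FT and TFL1 60.7%. FD and FDP shared 73.1% over 191 aligned codons. A tyrosine of FT and the histidine of TFL1 at the matching place are known to account for much of their opposite activity. The coding bases around that codon are shown because they separate the members whose levels are compared below. Each run holds 7 codons before and 7 after it, joins coding exons across an intron, and has the matching codon in capitals, at codon 85 of FT, TSF and BFT, 88 of TFL1, 86 of ATC and 83 of MFT.
FT: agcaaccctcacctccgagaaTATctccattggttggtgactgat
TSF: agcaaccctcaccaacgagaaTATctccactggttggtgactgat
BFT: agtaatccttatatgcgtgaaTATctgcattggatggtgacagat
TFL1: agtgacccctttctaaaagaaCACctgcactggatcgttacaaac
ATC: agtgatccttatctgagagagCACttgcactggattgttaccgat
MFT: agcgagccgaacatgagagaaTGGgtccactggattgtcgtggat
The codon was the same in TFL1 and ATC, and the same in FT, TSF and BFT, so the grouping by this codon places BFT with FT although its known activity is that of a repressor.

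On TAIR10 the authors' loci of the members called most often lie at chr1:24331428-24333934 (FT, plus strand), chr5:1024641-1025812 (TFL1, minus strand), chr2:11773251-11774681 (ATC, plus strand) and chr4:17004595-17006287 (FD, plus strand). None of these 4 shared its bounds with another locus. A gene was called, and is said to have risen or fallen, where its test status was OK and the deposited Cuffdiff q was below 0.05. All 9 member loci were tested in all 3 tables. In pkl 1 of 8 genes rose and 1 fell, against 6.73% of all tested loci called higher and 6.74% called lower. In clf 2 rose and 1 fell, against 7.11% and 5.28%. In lhp1 4 rose and 1 fell, against 11.1% and 10.6%. The median of log2((FPKM + 1)/(WT FPKM + 1)) over the 8 genes was -0.36 in pkl, 0.23 in clf and 0.26 in lhp1, beside 0.01, -0.01 and 0.03 over all tested loci. FD was the single member called in all 3 mutants, while FT, TFL1 and ATC were called in 2 each, MFT in 1, and TSF, BFT and FDP in none. All 3 comparisons share the WT libraries, so calls of a gene in several mutants are not independent. The share of all loci called in 2 or in all 3 mutants is not given here.

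**Figure D1:**
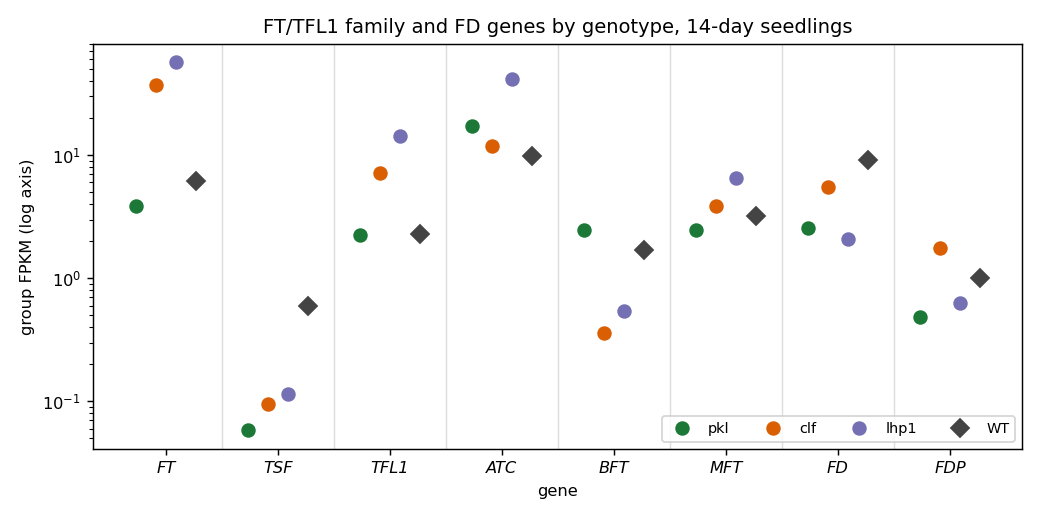
Group FPKM (log axis) of the 8 genes in pkl, clf, lhp1 (circles) and WT (diamonds), 1 deposited value per genotype. FT and TFL1 were highest in lhp1 and clf, FD was highest in WT, and TSF stayed below 1 FPKM in every genotype.

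FT rose in clf and lhp1 and was lower without a call in pkl. Its level was 3.85 FPKM in pkl, 37.1 in clf and 56.7 in lhp1, against 6.17 in WT. The fold change was 6.01 in clf and 9.19 in lhp1, both with q = 0.000661 in the authors' deposited table, the smallest q it holds. By fold change without a pseudocount, FT ranked 81 of 1372 rises in clf and 75 of 2130 in lhp1. The ranks are among called loci above 0 in both groups. In pkl the log2 fold change was -0.68, with q = 0.0525 in the authors' deposited table, just outside the threshold. A standard error can be implied from the deposited p (the absolute log2 fold change divided by the normal quantile of p). For FT in pkl it was 0.26, which gives a 95% interval from -1.19 to -0.17 on the log2 scale before any adjustment for the number of loci.

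None of 3 companion cell markers (SUC2, APL and AHA3) was called in clf or lhp1, where FT rose. Of all tested loci, 12.4% were called in clf and 21.7% in lhp1, in either direction. The summed level of the 3 markers was 250.9 FPKM in clf and 223.1 in lhp1, against 223.5 in WT. In pkl the sum was 146.1 FPKM, and the sucrose transporter gene SUC2 fell to 65.9 FPKM, against 134 in WT, as 1 of the 3 markers. Its part in the lower FT value of pkl was not tested. In whole seedlings, fewer cells of a type and less RNA per cell cannot be told apart.

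TSF, the twin of FT, did not follow it. It stood at 0.0581 FPKM in pkl, 0.0948 in clf and 0.114 in lhp1, against 0.59 in WT. All 3 mutant values were lower than that of WT, by a factor of 10.2 in pkl, 6.22 in clf and 5.17 in lhp1, but none was called, with q between 0.205 and 0.326 in the authors' deposited tables. The implied 95% intervals on the log2 scale ran from -7.47 to 0.78 in pkl, from -5.41 to 0.13 in clf and from -4.81 to 0.07 in lhp1. Changes at this level were seldom called. Of other tested loci within a factor of 1.5 of its mean level that changed at least 2-fold, 18.3% were called in pkl (51 of 279), 11.8% in clf (30 of 254) and 15.8% in lhp1 (54 of 341). How reads shared between FT and TSF were divided is not stated.

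**Figure D2:**
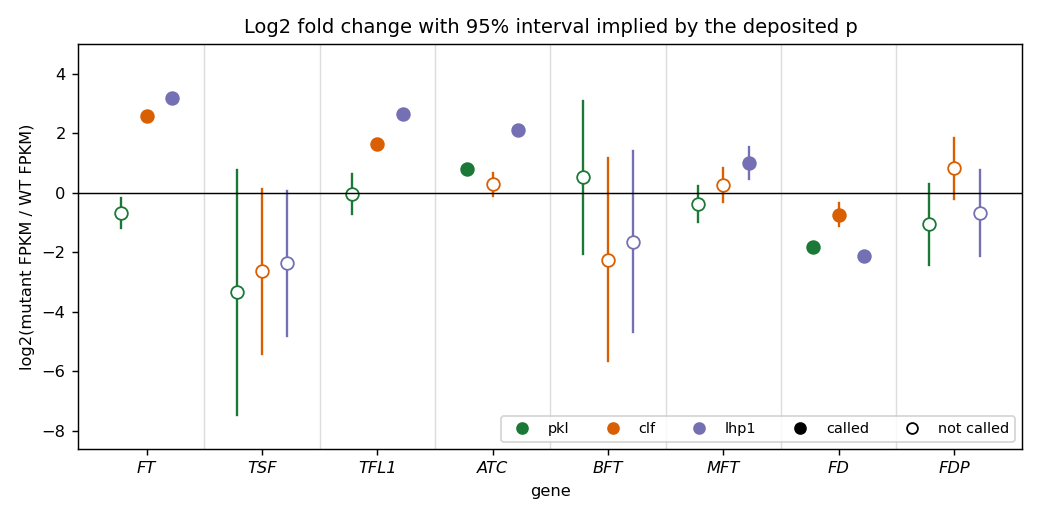
Log2 fold change of each gene in pkl, clf and lhp1 over WT; filled circles were called and open circles were not, and bars are 95% intervals implied by the deposited p, drawn where p was above its smallest value of 5e-05. Bars are widest for TSF and BFT, and FD lies below 0 in all 3 mutants.

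TFL1, the repressor that keeps the inflorescence meristem indeterminate, rose in the same mutants as FT. It stood at 2.24 FPKM in pkl, 7.18 in clf and 14.4 in lhp1, against 2.28 in WT. The level was higher 3.14-fold in clf and 6.3-fold in lhp1, each with q = 0.000661 in the authors' deposited table. In pkl the log2 fold change was -0.03, with an implied 95% interval from -0.70 to 0.65.

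ATC, which encodes a mobile repressor of flowering, rose in pkl and lhp1 and was not called in clf. Its level was 17.1 FPKM in pkl, 11.9 in clf and 41.9 in lhp1, against 9.76 in WT, where it was the most abundant of the 6 family genes. The fold change was 1.76 in pkl and 4.29 in lhp1, each with q = 0.000661 in the authors' deposited table. In clf the log2 fold change was 0.28 and the implied 95% interval ran from -0.11 to 0.67; q was 0.400 in the authors' deposited table. ATC was the single family gene that rose in pkl. The values of clf and lhp1 differed by a factor of 3.53 for ATC, 2.0 for TFL1 and 1.53 for FT, higher in lhp1 each time, and the tables hold no test of 1 mutant against another.

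BFT was the member with the widest intervals beside TSF. It stood at 2.45 FPKM in pkl, 0.357 in clf and 0.543 in lhp1, against 1.70 in WT, and was called in none, with q between 0.461 and 0.880 in the authors' deposited tables. The implied standard error was, on the log2 scale, 1.31 in pkl, 1.74 in clf and 1.55 in lhp1, while that of TFL1, at a like level, was 0.344 in pkl. The authors placed BFT in a locus that has the same bounds as OXA1 (AT5G62050), a gene on the opposite strand at 25.2 FPKM in pkl, 24.3 in clf and 30.6 in lhp1, against 26.6 in WT. The 2 genes overlap over 333 bases, and 318 of the 630 exon bases of BFT (50.5%) lie within exons of OXA1. No source used here states the strand setting, so reads from that overlap cannot be told apart.

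MFT rose in lhp1 and was not called in pkl or clf. It stood at 2.47 FPKM in pkl, 3.86 in clf and 6.48 in lhp1, against 3.22 in WT. The fold change in lhp1 was 2.02, with q = 0.00276 in the authors' deposited table. In pkl the implied 95% interval of its log2 fold change ran from -0.99 to 0.23 and in clf from -0.29 to 0.82, and the difference between lhp1 and the other mutants was not tested. MFT has a neighbour on the opposite strand as well, AT1G18090, and the authors gave both loci the same bounds. Of the 1438 exon bases of MFT, 606 (42.1%) lie within exons of AT1G18090, and reads from that overlap cannot be told apart. A further opposite-strand gene, AT1G05383, overlaps 23 exon bases of MFT. AT1G18090 was at 2.61 FPKM in pkl, 2.91 in clf and 2.76 in lhp1, against 3.12 in WT, and was called in no mutant. Seed markers were near the floor beside MFT. The 5 markers CRA1, OLEO1, ABI3, EM1 and LEC1 summed to 0.141 FPKM in pkl, 0.225 in clf and 0.0356 in lhp1, against 0.307 in WT, with 3 of the 5 at 0 in lhp1 and none tested.

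**Figure D3:**
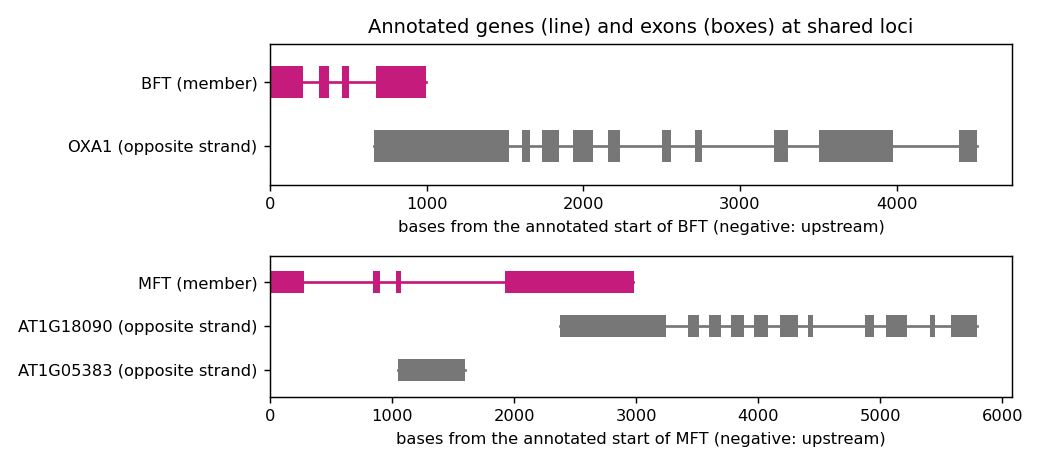
Annotated genes (lines) and exons (boxes) at the loci of BFT and MFT, in bases from the start of each; members are in magenta and genes of the opposite strand in grey. OXA1 covers the last exon of BFT, and AT1G18090 covers part of the last exon of MFT.

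FD fell in every mutant. It stood at 2.58 FPKM in pkl, 5.48 in clf and 2.09 in lhp1, against 9.15 in WT. WT was highest, clf lay between, and pkl and lhp1 were lowest. The level was lower by a factor of 3.54 in pkl, 1.67 in clf and 4.37 in lhp1, with q = 0.000661, 0.00177 and 0.000661 in the authors' deposited tables. FD therefore fell in clf and lhp1 while FT and TFL1 rose, and fell in pkl, where FT and TFL1 were not called. FDP gave no call. At its more abundant locus it stood at 0.48 FPKM in pkl, 1.78 in clf and 0.629 in lhp1, against 1.00 in WT, with q between 0.327 and 0.653 in the authors' deposited tables. The other FDP locus, at the same coordinates, read 0.737 FPKM in pkl, 1.23 in clf and 0.44 in lhp1, against 0.685 in WT, so the direction in pkl differed between them.

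Of 5 markers of the shoot meristem, where FD and TFL1 act (STM, CLV1, CLV3, WUS and KNAT1), 3 were tested. STM fell in pkl, while STM and KNAT1 rose in clf and lhp1, where FD fell. CLV1 was called in no mutant, at 25.5 FPKM in pkl, 28.3 in clf and 29.4 in lhp1, against 29.0 in WT. The summed level was 35.3 FPKM in pkl, 61.3 in clf and 61.4 in lhp1, against 45.4 in WT. CLV3 and WUS, the defining genes of the stem cell niche, were listed at 0 in WT and did not exceed 0.274 FPKM in any genotype. All 4 floral organ markers (AG, AP3, PI and SHP2) rose in clf and lhp1, beside 7.11% and 11.1% of all tested loci called higher there. Their sum was 2.22 FPKM in pkl, 60.4 in clf and 93.6 in lhp1, against 1.94 in WT. The part of these marker shifts in the levels of TFL1 and FD was not tested. More cells of a type and more RNA per cell cannot be told apart here.

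The ratio of the summed levels of promoting and repressing members differed between genotypes in group values. FPKM is scaled to transcript length, so levels may be added across genes. FT and TSF together came to 3.91 FPKM in pkl, 37.2 in clf and 56.9 in lhp1, against 6.76 in WT. TFL1 and ATC together came to 19.4 FPKM in pkl, 19.0 in clf and 56.3 in lhp1, against 12.0 in WT. The ratio of the first sum to the second was 0.202 in pkl, 1.95 in clf and 1.01 in lhp1, against 0.561 in WT, and with BFT among the repressors it was 0.179, 1.92 and 1.00, against 0.492. In clf FT made up 61.4% of the summed level of the 6 family genes, against 26.0% in WT. In lhp1 both sums were high: FT made up 47.2% and ATC 34.9%. In pkl ATC made up 60.8%, against 41.2% in WT. The level of FT relative to FD was 1.49 in pkl, 6.76 in clf and 27.1 in lhp1, against 0.675 in WT. It exceeded that of WT in all 3 mutants; in pkl both genes were lower than in WT, FD by the larger factor. These ratios describe group values of whole seedlings, not levels within any cell type, and carry no test.

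**Figure D4:**
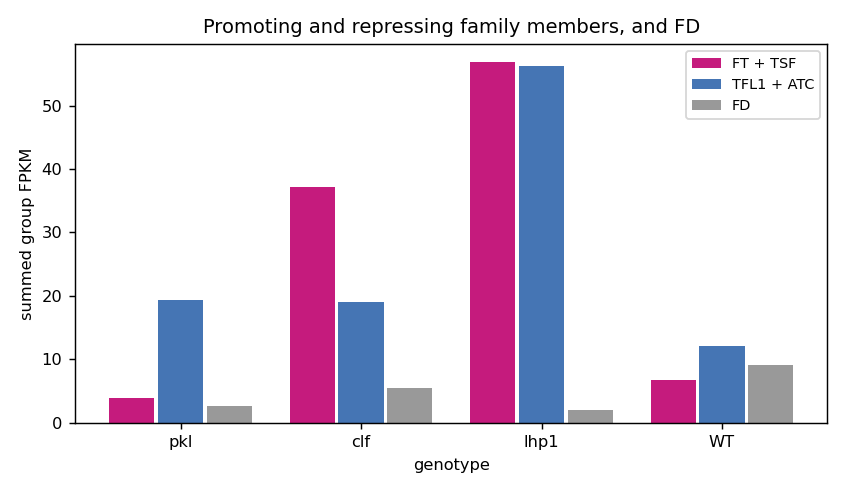
Summed group FPKM of FT and TSF (magenta) and of TFL1 and ATC (blue), and the FPKM of FD (grey), in pkl, clf, lhp1 and WT. The 2 sums are about equal in lhp1 (56.9 and 56.3), FT and TSF lead in clf, TFL1 and ATC lead in pkl and WT, and FD is highest in WT.

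Upstream sequences of FT and FD are shown because FT rose in clf and lhp1 while FD fell in all 3 mutants. Each run holds the 300 bases before the RefSeq gene start (TAIR10.1, gene strand, 5′ to 3′). Capitals mark matches on either strand to 5 motifs: the telobox AAACCCTA and the repeat GAGAGA, both tied to Polycomb recruitment in Arabidopsis, the G-box CACGTG, the CO-responsive element TGTGNNATG, and the CArG box.
FT, chr1:24331073-24331372, plus strand: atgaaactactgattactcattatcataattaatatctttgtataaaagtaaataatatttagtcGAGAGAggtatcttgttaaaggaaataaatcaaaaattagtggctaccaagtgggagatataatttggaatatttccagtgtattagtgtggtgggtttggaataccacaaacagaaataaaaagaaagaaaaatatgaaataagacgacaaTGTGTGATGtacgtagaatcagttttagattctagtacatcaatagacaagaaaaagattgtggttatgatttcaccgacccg
FD, chr4:17004082-17004381, plus strand: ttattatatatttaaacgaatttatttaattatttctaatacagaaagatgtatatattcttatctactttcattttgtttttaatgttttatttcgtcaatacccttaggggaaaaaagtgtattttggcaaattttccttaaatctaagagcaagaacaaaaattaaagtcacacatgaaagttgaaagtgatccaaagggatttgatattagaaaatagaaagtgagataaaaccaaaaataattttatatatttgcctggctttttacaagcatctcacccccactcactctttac
The repeat GAGAGA occurred upstream of FT, TSF, BFT and ATC, 4 of the 7 genes searched, and in 23.6% of 27443 protein-coding genes of the nuclear chromosomes. The CO-responsive element occurred in 1 of the 7 windows, that of FT, from base -83 to base -75, and in 4.03% of all windows. The telobox, the G-box and the CArG box occurred in none of the 7 windows, against 5.21%, 7.09% and 2.92% of all windows.

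The genes that flank the members on the chromosome were called about as often as all loci. Of the 16 nearest named loci, 1 on each side of each member, 10 were tested. In pkl 1 rose and none fell, in clf none rose and 1 fell, and in lhp1 1 rose and 1 fell, beside 13.5%, 12.4% and 21.7% of all tested loci called in either direction. The called ones are named after their values were seen. FAS1, 7363 bases from FT, for a chromatin assembly factor subunit, rose in pkl to 6.74 FPKM, against 4.94 in WT. AT1G65481, 7091 bases on its other side, rose in lhp1 to 7.10 FPKM, against 2.47 in WT. MCA2, 37 bases from FDP, fell in clf to 6.78 FPKM and in lhp1 to 6.89 FPKM, against 9.82 in WT. Both flanking loci of ATC were listed at 0 in every genotype.

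Regulators upstream of FT were counted over loci that hold a single gene. Of 3 tested activators, the photoperiod gene CO was called in no mutant, at 4.30 FPKM in pkl, 3.85 in clf and 4.77 in lhp1, against 3.96 in WT. FKF1, which removes CDF repressors, fell in pkl to 9.54 FPKM, against 18.5 in WT, and PIF4, a growth and temperature factor, fell in all 3 mutants, to 1.28 in pkl, 1.10 in clf and 1.24 in lhp1, against 2.96 in WT. Of these 3 activators, 2 fell in pkl, 1 in clf and 1 in lhp1. Of all tested loci, 6.74%, 5.28% and 10.6% were called lower there. GI and CIB1 lay in loci shared with other genes and were left out of the count.

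Repressors of FT fell more often than they rose in each mutant. Of 18 tested, 3 rose and 5 fell in pkl, 1 rose and 5 fell in clf, and none rose and 8 fell in lhp1. Of all tested loci, 6.73% were called higher and 6.74% lower in pkl. The shares were 7.11% and 5.28% in clf, and 11.1% and 10.6% in lhp1. The MADS-box repressor gene SVP fell in every mutant, to 49.1 FPKM in pkl, 35.4 in clf and 24.3 in lhp1, against 64.0 in WT. The 3 that rose in pkl were MAF4, at 9.9995 FPKM, against 3.52 in WT, TOE2, at 17.7 FPKM, against 10.6 in WT, and MAF5, at 11.9 FPKM, against 8.52 in WT; MAF5 fell in lhp1, to 2.77 FPKM. TEM1 and TEM2, for RAV-type repressors that bind the FT gene, were lowest in lhp1 as well. TEM1 fell to 63.7 FPKM in clf and 32.6 in lhp1, against 108 in WT, and was not called in pkl. TEM2 stood at 125 FPKM in pkl, 99.6 in clf and 61.7 in lhp1, against 174 in WT, and fell in all 3 mutants. TOE1, of the AP2 type, fell to 17.4 FPKM in clf and 9.64 in lhp1, against 30.2 in WT. FLC went against this pattern in clf, where it rose to 16.3 FPKM beside a rise of FT, and fell to 0.524 in pkl and 1.94 in lhp1, against 3.77 in WT. The median log2((FPKM + 1)/(WT FPKM + 1)) of the list was -0.20 in pkl, -0.01 in clf and -0.63 in lhp1.

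Among genes for transport of FT, FTIP1, needed for export of FT from companion cells, rose in lhp1 to 11.2 FPKM, against 7.34 in WT, and was the single call among 3 tested genes in any mutant. The 14-3-3 partners were called at a share near that of all loci in pkl and lhp1. Of 10 tested, 1 fell in pkl, none was called in clf, and 1 rose and 1 fell in lhp1, beside 13.5%, 12.4% and 21.7% of all tested loci called in either direction. GRF11 was the one that fell, to 7.02 FPKM in pkl and 6.61 in lhp1, against 11.2 in WT.

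Most genes listed as downstream of FT and FD rose in clf and lhp1, where FT was high and FD low. Any part of FT or FD in these rises was not tested. Of 12 tested both in clf and in lhp1, 10 rose in clf and 8 in lhp1, and none fell. In pkl 9 were tested, none rose and 3 fell. Of all tested loci, 7.11% were called higher in clf, 11.1% higher in lhp1 and 6.74% lower in pkl. SEP3, a MADS-box factor of floral organs, stood at 5.77 FPKM in pkl, 166 in clf and 232 in lhp1, against 9.93 in WT, and was called in all 3. AP1, which sets floral meristem identity, rose to 4.15 FPKM in clf and 19.3 in lhp1, against 0.188 in WT, and was not tested in pkl, at 0.0471. SPL4, a phase change factor, rose to 23.2 FPKM in clf and 23.5 in lhp1, against 4.38 in WT. SOC1, a direct target of the FT and FD complex, rose in clf to 29.1 FPKM, against 19.4 in WT, and was not called in pkl at 16.1 or in lhp1 at 24.0. AGL24, a partner of SOC1, fell in pkl to 8.97 FPKM and rose to 36.3 in clf and 26.8 in lhp1, against 19.9 in WT. The median log2((FPKM + 1)/(WT FPKM + 1)) of the list was -0.63 in pkl, 1.28 in clf and 2.24 in lhp1. Over all tested loci it was 0.01, -0.01 and 0.03. SEP2 was not called in lhp1, with q = 0.529 in the authors' deposited table, although it stood at 18.7 FPKM, against 0.179 in WT.

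**Figure D5:**
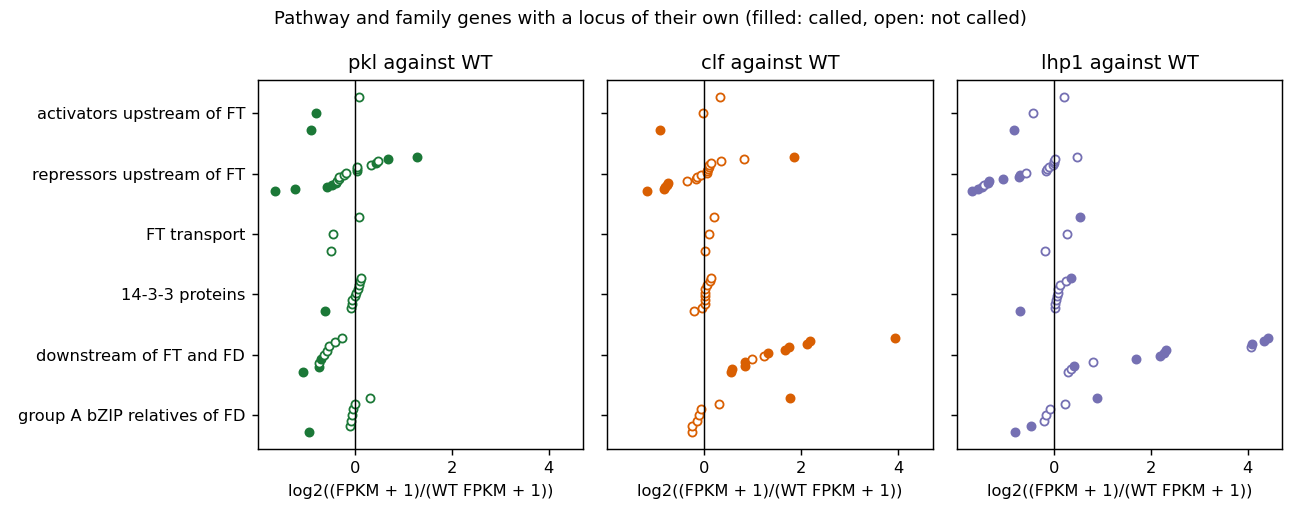
Log2((FPKM + 1)/(WT FPKM + 1)) of the tested genes of 6 pathway and family lists in pkl, clf and lhp1; filled circles were called and open circles were not. Downstream genes lie to the right in clf and lhp1 and to the left in pkl, repressors lie mostly to the left in lhp1, and 14-3-3 genes lie near 0.

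No tested relative of FD in the same bZIP group was called lower in all 3 mutants. The share of all loci so called is not given here, and no difference from FD was tested. Of 7 tested group A genes, none rose and 1 fell in pkl, 1 rose and none fell in clf, and 1 rose and 2 fell in lhp1, beside 13.5%, 12.4% and 21.7% of all tested loci called in either direction. EEL, a seed bZIP factor, fell to 0.748 FPKM in pkl and 0.937 in lhp1, against 2.35 in WT. In clf EEL was lower without a call, at 1.83 FPKM. ABI5, an abscisic acid response factor, rose to 12.2 FPKM in clf and 6.17 in lhp1, against 2.86 in WT. ABF4 fell in lhp1 to 17.8 FPKM, against 24.8 in WT. ABF1, ABF2, ABF3 and GBF4 were called in no mutant.

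The genes nearest in pattern over the 3 mutants were sought for FT, TFL1 and FD. Likeness was the Euclidean distance between the 3 values of log2((FPKM + 1)/(WT FPKM + 1)), over 15951 other single-gene loci tested in all tables with a mean of at least 1 FPKM. The 5 nearest to FT were the vegetative storage protein gene VSP2 (distance 0.415), AT5G62730 (0.447), the jacalin gene JAL23 (0.712), the carpel gene SHP1 (0.720) and the cytochrome P450 gene CYP706A3 (0.733). VSP2 stood at 14.7 FPKM in pkl, 146 in clf and 148 in lhp1, against 22.1 in WT. It has a near-identical neighbour, VSP1, so its value is uncertain. The 5 nearest to TFL1 were BGLU45 (0.149), CML38 (0.228), ABCC9 (0.342), AT1G75900 (0.346) and the subtilase gene ATSBT5.2 (0.451). The 5 nearest to FD were AT5G62360 (0.158), AT4G22217 (0.267), AT4G17680 (0.325), AT1G13750 (0.372) and the carbonic anhydrase gene ACA1 (0.385). AT5G62360 stood at 21.6 FPKM in pkl, 37.8 in clf and 17.6 in lhp1, against 57.4 in WT. Rank by rank, the distances of FT were larger than those of TFL1 and FD. They describe 3 values that share 1 WT.

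As checks of the labels, PKL stood at 6.83 FPKM in pkl, against 20.8 in WT, and CLF at 0.264 in clf, against 8.37 in WT, though CLF was not called, with q = 0.0520 in the authors' deposited table. LHP1 was listed at 0 in lhp1, against 12.1 FPKM in WT. Leaf and root markers were present in every genotype: RBCS1A was at 9334 FPKM or more and PYK10 at 1905 FPKM or more. Of 3 leaf markers, 1 fell in pkl, 1 in clf and 2 in lhp1, and none rose. Of 4 root markers, 1 rose in pkl, 1 fell in clf and 1 rose in lhp1. Of all tested loci, 13.5%, 12.4% and 21.7% were called in either direction. The leaf markers summed to 15755 FPKM in pkl, 11911 in clf and 10423 in lhp1, against 14973 in WT. Any part of these shifts in the member levels was not tested. The 5 common control genes gave 1 call, ACT2 lower in lhp1. Group FPKM summed to between 911735 and 992382, and library depth is unknown.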

How the data were processed

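The authors deposited 3 gene-level Cuffdiff tables, pkl, clf and lhp1 each against WT, over the same 31788 loci, per the file headers. Per the submitters' processing notes, TopHat, Cufflinks 2.1.1 and Cuffdiff 2.1.1 were used with TAIR10; strand setting, library normalisation and how many libraries entered each value are not stated in any source used here. Each table holds 1 deposited FPKM value per group, the authors' test statistic (a score, not used here), and the deposited p-value and q-value. The smallest p is 5e-05.

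Samples were grouped by title. Log2 fold changes were computed from the FPKM without a pseudocount; list medians used a pseudocount of 1 FPKM. Calls use the authors' q, fitted and adjusted by them over whole tables. Implied standard errors assume a normal statistic. The design foresaw edgeR or limma on single libraries, which could not be run on group values, and a protein comparison, for which coding DNA was used here. Sequences came from RefSeq TAIR10.1, whose nuclear chromosomes contained every locus; 24098 of 24098 matched single-gene loci overlapped the same gene. Upstream windows of 7 members were searched for motifs; that of the other member is not reported here. Locus starts, counted from 0 in the files, were shifted to 1. Gene lists numbered 15 with the members and markers, and 100 of 100 genes matched the reference table; 5 lay in shared loci and were left out of counts. Where a gene had several loci, the one with the highest mean FPKM was taken. Members and lists were chosen with earlier results of these data known. The rule for named genes took all members, allowed any called list gene, and took the 5 nearest patterns of FT, TFL1 and FD, the 3 mutated genes and genes that share a locus with a member. Which called list genes to name, and the uncalled list and marker genes named, were chosen after their values were seen. The counting steps were tested on simulated data. Python 3.11.15, pandas 2.3.3, SciPy 1.17.1 and Biopython 1.88 were used.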

Additional observations from a re-analysis of the deposited data

How the results depend on the processing

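Every call of the 8 members kept its direction and its side of the threshold at q below 0.01, with the deposited p adjusted by Benjamini-Hochberg within each table, with pseudocounts of 0.1 and 1 FPKM, with both other scalings (median ratio to WT and summed FPKM without the 10 highest loci), and over members with at least 1 FPKM. Scalings and pseudocounts move the fold changes but not the deposited q. Adjusted within the table, FT in pkl had q = 0.0659. With the other FDP locus, chosen after seeing the data, FDP in pkl was at a log2 fold change of 0.11 and not called, against -1.06 at the first locus. Over the 6 pathway and family lists together, the count of genes lower in pkl was 7 at q below 0.01, against 12 at 0.05, because fewer genes pass a stricter threshold; the other such totals stayed within 1.5 times. Within single lists, the count at q below 0.01 was 3 against 5 for repressors lower in pkl, 1 against 2 for activators lower in pkl, 0 against 1 for group A bZIP genes lower in pkl, 1 against 2 for those lower in lhp1, and 0 against 1 for 14-3-3 genes higher in lhp1. Among named list genes, the calls of FKF1, SVP, MAF5 and EEL in pkl and of FLC, AGL24, EEL and ACT2 in lhp1 did not pass 0.01. The flanking calls of FAS1 in pkl and of MCA2 in clf and lhp1 did not pass it either. Their q was 0.0294, 0.0118 and 0.0135 in the authors' deposited tables. With loci of several genes counted, 2 activators were lower in clf and 2 in lhp1, against 1 in each. The median ratio to WT was 1.01 in pkl, 0.994 in clf and 1.02 in lhp1. No paired analysis was possible because the tables hold 1 value per group, and for the same reason no replicate could be left out. Depth is unknown, and changes of genes near the level of TSF were seldom called.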
